A study of Setaria viridis with 32 samples.

Results

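A small group of loci, among them the most abundant of filling Setaria viridis seed heads, is described here. A locus was a member if its mean CPM (reads of the locus per 1000000 reads counted in the library) exceeded 500 at both 8 and 16 days after anthesis (DAA). These means also had to lie within 2-fold of each other and to be at least 8 times the higher of the means at 50% seed head emergence (50% SH) and anthesis. Both ecotypes had to meet these conditions, and loci that the study lists for sugar transport and metabolism were left out. Of 38334 loci, 13 were members, and 4 more loci met the thresholds but are on the study's sugar list. The members were thus chosen by their CPM at all 4 stages, and the rise between early and late stages and the stability from 8 to 16 DAA are given as descriptions, without a test.

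Grain filling in grasses follows fertilisation, when sucrose arriving through the phloem is turned into starch and amino acids are built into storage proteins, mostly in the endosperm. In cereal endosperm, genes of seed storage proteins are known to be transcribed at very high levels, many of them short and arranged as neighbouring copies. The files name none of the 13 loci, and the RefSeq gene table used here matched 0 of the 38334 identifiers, so no product or role is given to any member.

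RNA was collected from whole seed heads of 2 ecotypes, ME034V, the ecotype used for transformation, and A.10, an ecotype in common use as a genetic model. The 4 stages were 50% SH and anthesis, called early here, and 8 and 16 DAA, called late, with 4 biological replicates per stage and ecotype and thus 32 libraries, each made from a pool of 4 plants. All plants were untreated and grown in a growth chamber, and whole heads hold every tissue of the inflorescence, so more cells of a type and more RNA per cell cannot be told apart. Poly(A) RNA was counted against 1 annotation (v2.1) for both ecotypes, without regard to strand and from reads that mapped to a single place. Reads shared by near-identical loci would be missing from such counts. How far sequence differences between the ecotypes alter single-place mapping at a locus was not tested.

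The libraries held 4557079 to 21175874 counts (median 8178992). Several libraries stood apart in the members. Among the late stages, ME034V 16 DAA replicate 3 was the lowest of its group in 12 of 13 members, and ME034V 8 DAA replicate 3 and A.10 8 DAA replicate 1 were each the lowest in 11. Among the early stages, A.10 anthesis replicate 3 was the highest of its group in all 13 members. ME034V anthesis replicate 2 was the highest in 11, and replicate 3 at 50% SH was the highest in 12 in each ecotype.

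The members lay on chromosomes 2, 3, 4, 5, 7, 8 and 9 of the v2.1 annotation. Of the 13, 6 formed 3 neighbouring pairs, each on the minus strand. How often other loci pair in this way was not counted. The most abundant pair, Sevir.9G410150 (chromosome 9, 44204634 to 44205543) and Sevir.9G410100 (44194828 to 44195472), was 9161 bp apart with no locus between. Sevir.8G199000 (chromosome 8, 33898938 to 33899866) and Sevir.8G198700 (33890652 to 33891574) were separated by 7363 bp and 2 loci. Sevir.9G300633 (chromosome 9, 32713423 to 32714054) and Sevir.9G300666 (32716195 to 32716842) were 2140 bp apart with no locus between.

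The other 7 members stood alone. On the plus strand were Sevir.2G224200 (chromosome 2, 30645496 to 30646177), Sevir.3G037400 (chromosome 3, 2320998 to 2326675), Sevir.4G169900 (chromosome 4, 17188968 to 17189435), Sevir.5G354800 (chromosome 5, 38775620 to 38776227) and Sevir.7G027900 (chromosome 7, 11694933 to 11695493). On the minus strand were Sevir.4G185000 (chromosome 4, 13896175 to 13897957) and Sevir.5G263600 (chromosome 5, 31815470 to 31821727). Sevir.5G263600 overlapped Sevir.5G263500 on the opposite strand by 988 bp, so reads of both loci cannot be told apart there.

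Most members were short. Measured between the annotated ends, introns included, their lengths had a median of 682 bp, and 10 of 13 (76.9%) were under 1000 bp. Of the 81 other loci above 500 CPM in each late group, 4 (4.94%) were under 1000 bp, with a median length of 4157 bp, and 7.94% of all loci tested were that short. The exceptions among the members were Sevir.4G185000 at 1783 bp, Sevir.3G037400 at 5678 bp and Sevir.5G263600 at 6258 bp. The shortest, Sevir.4G169900, was 468 bp long.

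Together the 13 loci held 6.75 to 13.3% of the counts of each late library. Their share of library counts was 0.00827 ± 0.00529% at 50% SH, 0.0168 ± 0.0204% at anthesis, 11.5 ± 1.99% at 8 DAA and 10.5 ± 2.59% at 16 DAA in ME034V (SD, n = 4 each). In A.10 the share was 0.0110 ± 0.00663%, 0.0482 ± 0.0709%, 11.4 ± 1.62% and 11.1 ± 1.45% at the same stages (SD, n = 4 each). The rule fixed this direction. Sevir.9G410150 and Sevir.9G410100 alone held 6.90 ± 1.17% of counts in ME034V and 6.61 ± 0.944% in A.10 at 8 DAA, and 5.74 ± 1.41% in ME034V and 5.998 ± 0.810% in A.10 at 16 DAA. The 4 listed loci that met the same thresholds held less, 0.462 to 0.763% of counts per late group.

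**Figure D1:**
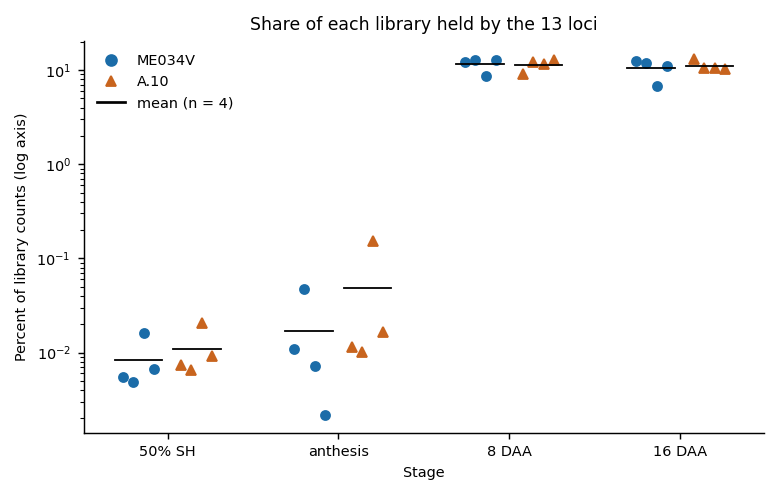
Percent of each library's counts held by the 13 loci (log axis) against stage, with circles for ME034V libraries, triangles for A.10 libraries and bars for the mean of 4. Late libraries lie between 6.75 and 13.3% and early libraries between 0.00219 and 0.154%, with A.10 anthesis replicate 3 the highest of the early ones.

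Sevir.9G410150 was the most abundant locus of the seed head in each of the 4 late groups. At 8 DAA it had 46171, 49679.7, 34122 and 49647 CPM in the ME034V libraries, against 27938, 39039, 36279.6 and 39432 CPM in the A.10 libraries. At 16 DAA it had 44142, 44097, 27457 and 40506 CPM in ME034V, against 41813, 31977, 32789 and 31259 CPM in A.10. The ecotypes overlapped at both stages, with the low ME034V replicate 3 among the A.10 values at 8 DAA and below them at 16 DAA. At 50% SH the locus averaged 28.7 ± 20.3 CPM in ME034V and 34.4 ± 26.0 CPM in A.10 (SD, n = 4 each).

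Its neighbour Sevir.9G410100 was second in each late group. The values at 8 DAA were 25754, 25870.2, 17634 and 27131 CPM in ME034V, against 24931, 33655, 29534 and 33649 CPM in A.10. At 16 DAA they were 22568, 21051, 9139 and 20706 CPM in ME034V, against 30271, 23143, 23831 and 24822 CPM in A.10. All 4 ME034V libraries lay below all 4 A.10 libraries at 16 DAA, whereas the ecotypes overlapped at 8 DAA.

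Sevir.4G169900 and Sevir.8G199000 took the next places in each late group. At 8 DAA, Sevir.4G169900 had 12516, 12634, 9818 and 11162 CPM in ME034V, against 13347, 17287, 17412 and 18293 CPM in A.10, and the groups did not overlap. Sevir.8G199000 had 14589.8, 15755, 9007 and 17661 CPM in ME034V at 8 DAA, against 7431, 9816, 9497 and 11258 CPM in A.10. There the ME034V libraries were higher except for replicate 3, which fell among the A.10 values.

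Sevir.8G198700, the neighbour of Sevir.8G199000, was at place 5 by the mean over the late groups. It averaged 4860.2 ± 1224 CPM in ME034V and 6497 ± 2035 CPM in A.10 at 8 DAA, and 6486 ± 1255 CPM in ME034V and 9561 ± 2375 CPM in A.10 at 16 DAA (SD, n = 4 each). Sevir.7G027900 and Sevir.2G224200 were eighth and ninth by the same mean. Sevir.7G027900 averaged 5588 ± 1453 CPM in ME034V and 2810.3 ± 417 CPM in A.10 at 8 DAA, the largest fold excess of ME034V among the members. Sevir.2G224200 stayed close in all late groups, at 3727 ± 587 and 3758 ± 861 CPM in ME034V and 4219 ± 416 and 4285 ± 781 CPM in A.10 (8 DAA, then 16 DAA).

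The remaining 6 members were less abundant. Their group means at the late stages ran between 536 and 2111 CPM. Sevir.9G300633 and Sevir.9G300666 averaged 1900.03 and 876 CPM over the 4 late groups, Sevir.3G037400 averaged 1347, Sevir.5G354800 averaged 1122, Sevir.4G185000 averaged 1115 and Sevir.5G263600 averaged 709 CPM. Of the 10 most abundant loci of each late group, 7 were members in ME034V at 8 DAA and 6 in ME034V at 16 DAA and in both late A.10 groups.

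Per kilobase of locus, introns included, the leading places were held by the same loci. Loci with introns are understated on this scale, so it compares levels between genes only roughly. The late mean was 42332 CPM per kb for Sevir.9G410150, 38148 for Sevir.9G410100, 29389 for Sevir.4G169900 and 13526 for Sevir.8G199000, places 1 to 4 of all loci over the 4 late groups. Within A.10 alone, Sevir.9G410100 came before Sevir.9G410150 by this measure. Sevir.8G198700 and Sevir.7G027900 took places 5 and 6, at 7422 and 7392 CPM per kb. By this measure the long members fell back, Sevir.3G037400 to place 98 and Sevir.5G263600 to place 254. The part of introns in this was not tested. On the deposited log2 FPKM scale, where each ecotype was normalised on its own, Sevir.9G410150 reached 15.65 ± 0.30 at 8 DAA and 15.51 ± 0.31 at 16 DAA in ME034V, and 15.32 ± 0.28 and 15.34 ± 0.23 in A.10 (SD, n = 4 each).

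**Figure D2:**
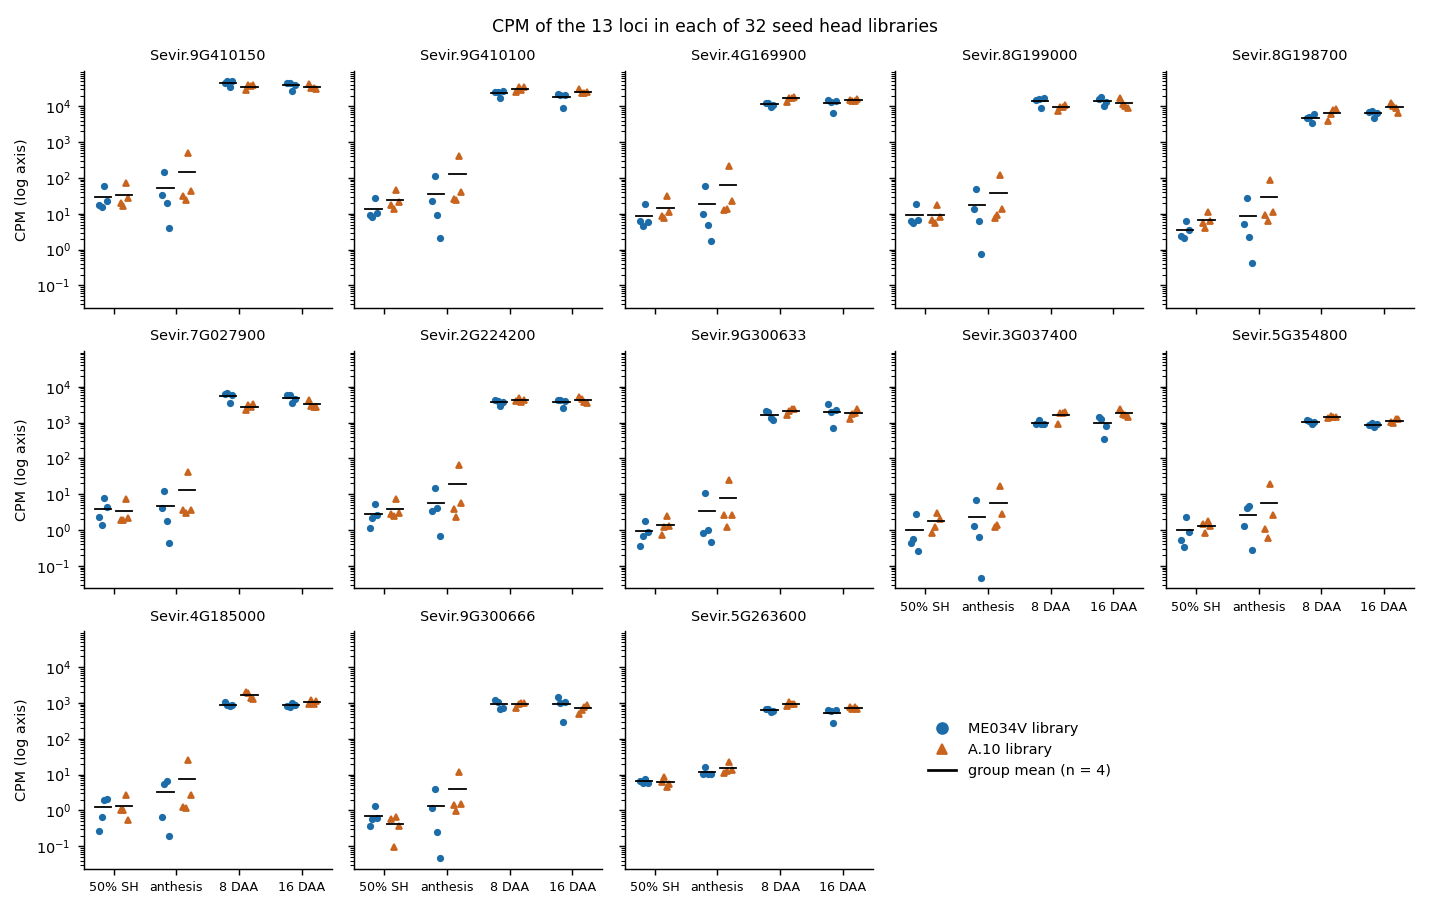
CPM (log axis) of each of the 13 loci in all 32 libraries against stage, ordered by late abundance, with circles for ME034V, triangles for A.10 and bars for the mean of 4. Each locus sits between 284 and 49679.7 CPM in every late library and at or below 487 CPM in every early library, and the single high A.10 triangle at anthesis is replicate 3 in all 13 panels.

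Within each locus the late libraries lay above the early ones without overlap, in 13 of 13 members in each ecotype, as against 9.29% of loci tested in ME034V and 12.9% in A.10, but the rule chose for this. The lowest late library of a member exceeded its highest early library by 17.0- to 281-fold in ME034V and by 30.6- to 63.5-fold in A.10. Anthesis levels amounted to a median of 0.161% of the late mean in ME034V (range 0.0882 to 2.04% over 13 members) and 0.425% in A.10 (range 0.330 to 1.79%). The top of each range was Sevir.5G263600, the locus with an overlapping neighbour. Without it the highest value was 0.363% in ME034V and 0.567% in A.10. These levels rest largely on 1 library in each ecotype. Without anthesis replicate 2 the median was 0.0520% in ME034V, and without anthesis replicate 3 it was 0.111% in A.10. The members' counts were also summed over the 4 libraries of a group. Of these, Sevir.9G410150 made up 34.6% at 50% SH, 29.7% at anthesis, 39.0% at 8 DAA and 37.0% at 16 DAA in ME034V. In A.10 it made up 29.8%, 30.6%, 31.1% and 30.9%. At anthesis, 1132 of its 1576 ME034V reads came from replicate 2, and 3854 of its 4569 A.10 reads from replicate 3.

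From 8 to 16 DAA the members moved little, as the rule required, and not in 1 direction. The ratio of the 16 DAA to the 8 DAA mean ran from 0.762 to 1.33 in ME034V and from 0.645 to 1.47 in A.10. It was above 1 in both ecotypes for 3 members, Sevir.2G224200, Sevir.8G198700 and Sevir.8G199000, and below 1 in both for 5. At 16 DAA, 3 members of A.10, Sevir.4G185000, Sevir.5G263600 and Sevir.5G354800, had every library below every 8 DAA library (13.3% of loci tested did), and 0 members did so in ME034V (8.06%). In 0 members of either ecotype did every 16 DAA library lie above every 8 DAA library (5.15% of loci in ME034V, 9.73% in A.10).

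The spread between pools was described by the coefficient of variation. The coefficient of variation over 4 libraries had a median of 16.4% in ME034V at 8 DAA, 23.7% in ME034V at 16 DAA, 15.0% in A.10 at 8 DAA and 18.2% in A.10 at 16 DAA. For the 81 other loci above 500 CPM in each late group, the medians were 7.71%, 15.3%, 8.87% and 8.11% in the same groups. In 3 of these 4 groups a single library was the lowest in 11 or 12 of the 13 members.

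The values nearest the thresholds were as follows. Sevir.5G263600 was just inside the minimum with a lowest late mean of 536 CPM, and Sevir.9G229900 just outside with 384 CPM. Sevir.4G185000 was closest to the limit on the change between 8 and 16 DAA, at 1.55-fold, and Sevir.9G058100 failed it at 2.32-fold. The smallest excess of a member over the early stages was 44.6-fold, for Sevir.5G263600, while Sevir.9G083900 failed with 5.56-fold.

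Whether the ecotypes differed was tested with edgeR's quasi-likelihood model on the counts of all 32 libraries, with Benjamini-Hochberg adjustment over 25264 loci and a threshold of 0.05. This difference was not part of the rule, although the rule bounds the levels in both ecotypes. At 8 DAA, 1 of 13 members passed, Sevir.5G263600, which was lower in ME034V. It had 672, 701, 565 and 617 CPM in ME034V, against 825, 1072, 911 and 912 CPM in A.10, without overlap. The log2 fold change was -0.59 (SE 0.20, edgeR adjusted p = 0.027). Over all loci tested, 9.85% passed as lower and 11.9% as higher in ME034V, and 0 members passed as higher. The call was lost without A.10 replicate 2 (edgeR adjusted p = 0.094), ME034V replicate 3 (edgeR adjusted p = 0.094) or ME034V replicate 4 (edgeR adjusted p = 0.056), and the overlap with Sevir.5G263500 applies to it.

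At 16 DAA, 0 of 13 members passed in edgeR, where 12.6% of all loci tested passed as lower and 15.8% as higher, and 1 member had an unadjusted edgeR p under 0.05. DESeq2 called 0 members as well, against 11.2% of loci as lower and 16.9% as higher. Sevir.5G263600 came closest, at -0.51 (SE 0.20, edgeR adjusted p = 0.052), and passed without ME034V replicate 1 or 2 (edgeR adjusted p = 0.032 and 0.049). It also passed with the replicate number as a block (edgeR adjusted p = 0.047), although the labels give no shared origin of same-numbered libraries. Across the 13 members the fitted log2 fold change of ME034V over A.10 ran from -0.91 to 0.94 at 8 DAA and from -0.98 to 0.57 at 16 DAA, being positive for 3 and 5 members.

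The standard errors of the members in this fit, 0.20 to 0.73 on the log2 scale, were wide against the spread seen in the late libraries. The fit takes 1 dispersion per locus from all 8 groups, and the early libraries varied more, with coefficients of variation of 71.0 to 154% for Sevir.9G410150, against 14.3 to 20.3% in the late groups. With the 16 libraries of 8 and 16 DAA alone, a choice made after seeing the data, the standard errors were 0.12 to 0.34, and 4 members passed at 8 DAA and 2 at 16 DAA. Of all loci, 10.3% then passed as higher and 8.55% as lower at 8 DAA, and 13.7% and 11.2% at 16 DAA. With only the 8 libraries of a stage, 6 members passed at 8 DAA, 1 as higher (11.5% of loci) and 5 as lower (9.42%), and at 16 DAA 0 passed as higher (10.6%) and 1 as lower (8.96%).

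In the fit of the 16 late libraries Sevir.7G027900 was higher in ME034V at 8 DAA. It had 6351, 6756, 3498 and 5745 CPM in ME034V, against 2279, 3014, 2705 and 3242 CPM in A.10, and all ME034V libraries lay above all A.10 libraries. The log2 fold change was 0.95 (SE 0.23, edgeR adjusted p = 0.0079), as against an adjusted p of 0.25 with all 32 libraries in edgeR. Sevir.4G185000 was lower in ME034V at 8 DAA, with 1039.9, 899.5, 806 and 856 CPM in ME034V against 2012, 1881, 1366 and 1272 CPM in A.10. Its log2 fold change was -0.90 (SE 0.15, edgeR adjusted p = 0.00042), as against an adjusted p of 0.19 with all 32 libraries in edgeR.

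Sevir.5G354800 was lower in ME034V at both stages in the late libraries alone. It had 1203, 1111, 910.3 and 1026 CPM in ME034V at 8 DAA, against 1309, 1559, 1441 and 1409 CPM in A.10, without overlap. Its log2 fold change there was -0.47 (SE 0.12, edgeR adjusted p = 0.011). The 16 DAA estimate was -0.42 (SE 0.12, edgeR adjusted p = 0.017), although the libraries of the ecotypes overlapped. Sevir.3G037400 passed as lower in ME034V at 16 DAA, at -0.97 (SE 0.33, edgeR adjusted p = 0.044), with 1398, 1232, 346 and 817 CPM in ME034V against 2332, 1752, 1639.8 and 1461 CPM in A.10. Sevir.5G263600 passed at 8 DAA in the fit of the 16 late libraries too, at -0.58 (SE 0.19, edgeR adjusted p = 0.037).

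Counted without a model, the libraries of the ecotypes did not overlap for 5 members at 8 DAA, with ME034V above in 1 (13.9% of loci tested) and below in 4 (9.25%). At 16 DAA ME034V was above in 0 (13.9%) and below in 3 (9.77%), Sevir.3G037400, Sevir.5G263600 and Sevir.9G410100. The 4 members below at 8 DAA were Sevir.4G169900, Sevir.4G185000, Sevir.5G263600 and Sevir.5G354800.

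**Figure D3:**
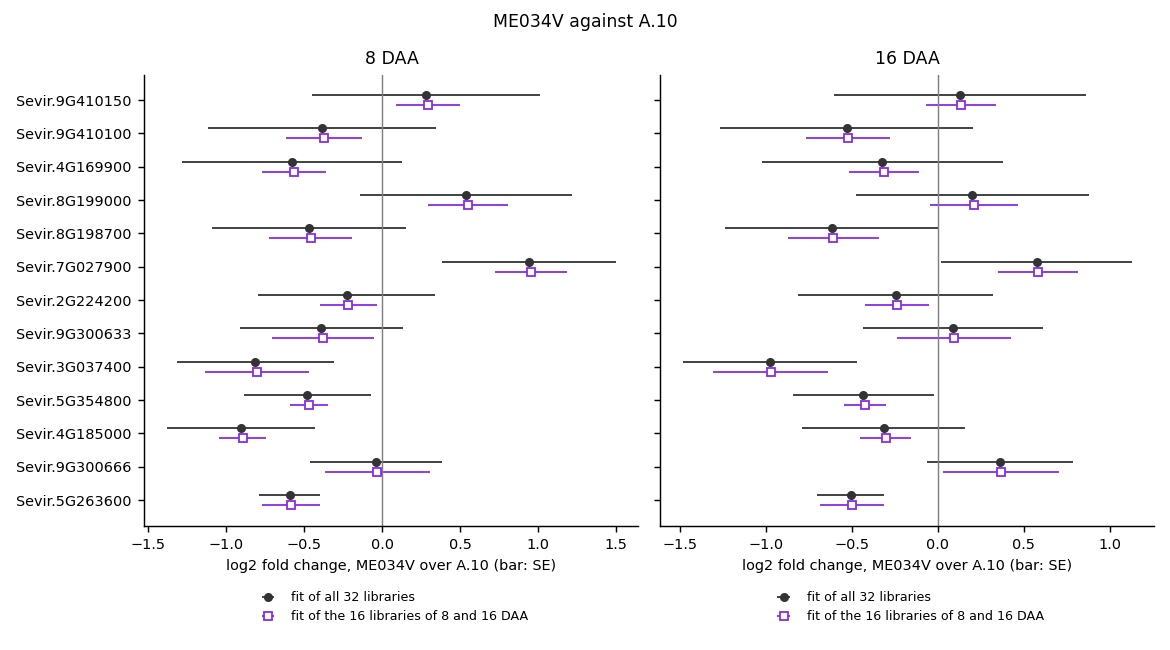
Log2 fold change of ME034V over A.10 at 8 DAA (left) and 16 DAA (right) for the 13 members, as fitted by edgeR to all 32 libraries (filled circles) and to the 16 late libraries (open squares), with bars for the SE. The estimates of both fits lie close together, while the bars are at most 0.73 long with 32 libraries and at most 0.34 with 16.

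The ratio between neighbouring members within a library, which library scaling cannot alter, did not overlap between the ecotypes in any of the 3 pairs at either late stage. How often this holds for ratios of other loci was not counted. Of single loci tested, 23.1% did not overlap between the ecotypes at 8 DAA and 23.7% at 16 DAA. Sevir.9G410150 exceeded Sevir.9G410100 by 1.79- to 1.94-fold in the ME034V libraries at 8 DAA, against 1.12- to 1.23-fold in the A.10 libraries. At 16 DAA the ratio was 1.96 to 3.00 in ME034V, the top being the low replicate 3, against 1.26 to 1.38 in A.10. The ratio of Sevir.8G199000 to Sevir.8G198700 averaged 2.92 ± 0.204 in ME034V and 1.53 ± 0.316 in A.10 at 8 DAA, and 2.21 ± 0.149 in ME034V and 1.26 ± 0.117 in A.10 at 16 DAA (SD, n = 4 each).

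The third pair differed in the other direction. Sevir.9G300633 exceeded Sevir.9G300666 by 1.82 ± 0.132-fold in ME034V and 2.30 ± 0.0668-fold in A.10 at 8 DAA, and by 2.15 ± 0.191-fold in ME034V and 2.54 ± 0.111-fold in A.10 at 16 DAA (SD, n = 4 each). These ratios were chosen after their values were seen and are described here without a test. The part of single-place mapping in these ratios was not tested.

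**Figure D4:**
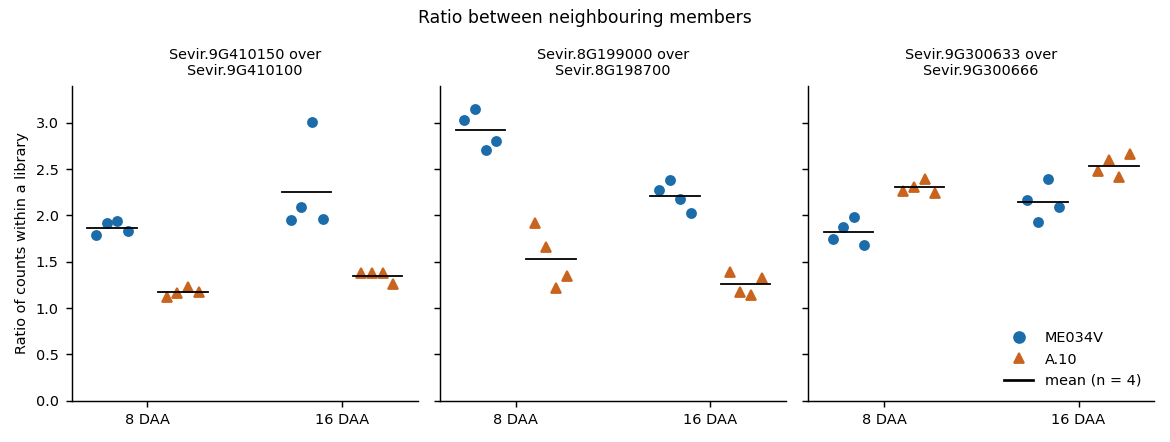
Ratio of counts between the members of each neighbouring pair within each late library, at 8 and 16 DAA, with circles for ME034V, triangles for A.10 and bars for the mean of 4. The ME034V circles lie above the A.10 triangles for the 2 pairs at the left and below them for the pair at the right.

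Some further loci beside members, picked for this, were also higher at the late stages, at lower levels, described here without a test. Next to Sevir.8G199000 stood Sevir.8G199012, Sevir.8G199024, Sevir.8G199036, Sevir.8G199048 and Sevir.8G199060 on the same strand, each 615 bp long. Sevir.8G199036 averaged 183 CPM in ME034V and 52.4 CPM in A.10 at 8 DAA, and 174 CPM in ME034V and 84.1 CPM in A.10 at 16 DAA. The group means of the other 4 were 36.2 to 143 CPM at the late stages. Sevir.9G300700, 600 bp long and on the strand of the Sevir.9G300633 pair, averaged 301 CPM in ME034V and 187 CPM in A.10 at 8 DAA. Sevir.5G354700, 437 bp from Sevir.5G354800, averaged 212 CPM in ME034V and 278 CPM in A.10 at 8 DAA. By contrast, Sevir.9G410200, 2064 bp from the most abundant locus, had group means of 74.1 to 112 CPM over all 4 stages.

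Whether the members had begun to rise by anthesis was tested within each ecotype, in edgeR fits of its 16 libraries. The difference between these stages was not part of the rule, although the rule capped both early means against the late ones. The loci tested beside the members passed no such limit. In A.10 all 13 passed as higher at anthesis than at 50% SH, where 16.7% of loci tested did and 17.8% passed as lower. The log2 fold changes ran from 1.20 for Sevir.5G263600 (SE 0.22, edgeR adjusted p = 0.00036) to 3.38 for Sevir.9G300666 (SE 0.87, edgeR adjusted p = 0.0059). The count fell to 5, 4 and 8 members without 50% SH replicate 1, 2 or 4, and to 2 without anthesis replicate 3. Without those 50% SH replicates, 3695 of 23914, 3611 of 23897 and 3491 of 23892 loci tested passed as higher. Sevir.9G410150 had 32.4, 24.5, 487 and 44.5 CPM at anthesis, against 20.3, 16.3, 72.6 and 28.4 CPM at 50% SH, and Sevir.4G169900 had 12.7, 13.2, 210.1 and 22.8 CPM, against 8.64, 7.56, 31.6 and 11.3 CPM.

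Without A.10 anthesis replicate 3, 2 of 13 members passed, against 14.5% of loci tested. These were Sevir.5G263600, at 0.92 (SE 0.18, edgeR adjusted p = 0.0010), and Sevir.9G300666, at 1.75 (SE 0.60, edgeR adjusted p = 0.038). They were also the 2 members whose A.10 anthesis libraries all lay above the 50% SH libraries, as they did for 16.7% of loci tested. DESeq2 called 6 members on the full set (16.5% of loci tested) and limma on the deposited log2 FPKM called 2 (17.1%), Sevir.5G263600 and Sevir.9G300666. Sevir.9G300666 had 7, 5, 92 and 15 reads at anthesis, against 7, 1, 3 and 2 reads at 50% SH.

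In A.10 anthesis replicate 3 the 12 members other than Sevir.5G263600 stood at 1.00 to 1.88% of their late A.10 mean, with a median of 1.37%. In the other A.10 anthesis libraries these medians were 0.0929%, 0.0823% and 0.141%. The starch synthase locus Sevir.4G021900 is on the sugar list and met the same thresholds. It stood at 1.51% of its late mean in that replicate and at 0.250 to 0.383% in the other 3. The other listed loci that met the thresholds stood apart by less in proportion. Sevir.1G181900 stood at 3.20% there, against 1.08 to 1.78% in the other 3. Sevir.5G244900 stood at 2.22% (0.855 to 1.21%) and Sevir.4G298600 at 10.98% (8.29 to 9.81%). In ME034V anthesis replicate 2, Sevir.4G021900 stood at 1.57%, above the same 12 members, which were at 0.233 to 0.736%. The cause was not tested.

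In ME034V, 1 of 13 members passed as higher at anthesis, against 10.4% of loci tested, and 0 as lower, against 8.14%. This was Sevir.5G263600, with 10.4, 16.7, 10.3 and 10.6 CPM at anthesis against 6.83, 5.84, 7.59 and 5.70 CPM at 50% SH, without overlap (12.7% of loci tested did not overlap in this direction). Its log2 fold change was 0.86 (SE 0.25, edgeR adjusted p = 0.022), and it was 0.66 (edgeR adjusted p = 0.083) without anthesis replicate 2. Anthesis replicate 2 was the high library. Sevir.9G410150 had 34.3, 146, 19.4 and 3.97 CPM at anthesis in ME034V, against 17.9, 15.7, 58.9 and 22.2 CPM at 50% SH. The lowest of these values was that of the most deeply sequenced library, replicate 4.

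All 13 fitted changes were positive in ME034V with all libraries, and 3 were positive without anthesis replicate 2, when 0 members passed in edgeR (8.51% of loci tested did). The call of Sevir.5G263600 was also lost without 50% SH replicate 2 or 4. Without anthesis replicate 4, 3 members passed as higher, Sevir.5G263600, Sevir.4G185000 and Sevir.5G354800, where 2258 of 24087 loci tested did. The change between these stages was not shown to differ between ecotypes. In the fit of all 32 libraries 0 of 13 members passed for that difference in edgeR, with a lowest adjusted p of 0.84. An unadjusted edgeR p under 0.05 was found in 0 members, while 0.119% of all loci tested passed. The estimates, ME034V minus A.10, were negative in all 13 members, which share the same libraries. On the log2 scale they ran from -2.78 for Sevir.9G300666 (SE 1.61) to -0.35 for Sevir.5G263600 (SE 0.35).

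**Figure D5:**
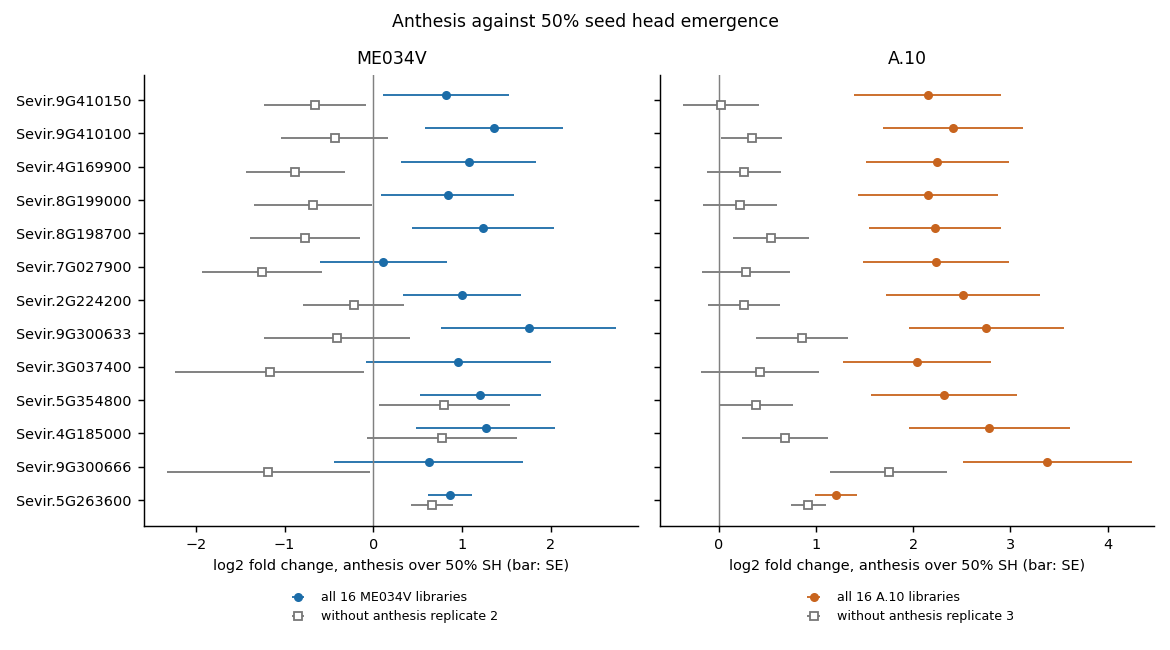
Log2 fold change of anthesis over 50% SH for the 13 members in ME034V (left) and A.10 (right), fitted by edgeR with all libraries (filled circles) and without 1 anthesis library, replicate 2 in ME034V and replicate 3 in A.10 (open squares), with bars for the SE. Without that library the estimates run from -1.26 to 0.80 in ME034V and from 0.02 to 1.75 in A.10.

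The ratio of the most abundant pair could also be read in the early libraries. In A.10 anthesis replicate 3, Sevir.9G410150 and Sevir.9G410100 had 3854 and 3265 reads, a ratio of 1.18, which lies within the late A.10 range. In ME034V anthesis replicate 2 they had 1132 and 856 reads, a ratio of 1.32. Sevir.9G410150 thus made up 56.9% of the pair (95% exact binomial interval 54.7 to 59.1%, counting error only). This ratio lies below all 8 late ME034V libraries and within the late A.10 range of 1.12 to 1.38. The other early ME034V libraries, which held fewer reads of the pair, had ratios of 1.54 to 2.17. Among the early A.10 libraries, 50% SH replicate 3 stood at 1.61, above the late A.10 range, and anthesis replicate 2 at 1.01, below it. For Sevir.8G199000 over Sevir.8G198700, ME034V anthesis replicate 2 had 379 and 213 reads, a ratio of 1.78. That ratio also lies below the late ME034V range, 2.03 to 3.15, and within that of A.10, 1.14 to 1.92. In ME034V replicate 4 this ratio was 1.78 at anthesis (16 and 9 reads) and 1.89 at 50% SH (53 and 28 reads). The cause was not tested.

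Genes of the starch route, through which filling grain forms starch, come from the study's list. Of 4 starch branching enzyme loci, 3 rose between the early and late stages in each ecotype. Of the ADP-glucose pyrophosphorylase loci, which supply the sugar nucleotide for starch, 5 of 7 tested rose in ME034V and 5 of 6 in A.10, and 1 fell in each. Starch synthase loci rose in 6 and fell in 3 of 11 in ME034V, and rose in 8 and fell in 3 of 11 in A.10. Of 4 sucrose synthase loci, 2 rose and 1 fell in each ecotype. Over all loci tested, 34.2% rose and 32.4% fell in ME034V, and 41.5% rose and 35.5% fell in A.10 (edgeR, adjusted p under 0.05).

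The 4 loci of this list that met the members' thresholds were Sevir.4G021900 (starch synthase), Sevir.1G181900 and Sevir.4G298600 (starch branching enzymes) and Sevir.5G244900 (ADP-glucose pyrophosphorylase). The most abundant was Sevir.4G021900, at 2411 ± 334 CPM in ME034V and 3116 ± 552 CPM in A.10 at 8 DAA, and 2359.6 ± 737 CPM in ME034V and 3523 ± 451 CPM in A.10 at 16 DAA (SD, n = 4 each). Its anthesis level was 0.788% of the late mean in ME034V and 0.606% in A.10. The anthesis level of Sevir.4G298600 was far higher, 10.96% of the late mean in ME034V and 9.41% in A.10. For Sevir.1G181900 and Sevir.5G244900 it was 3.79% and 1.88% in ME034V, and 1.91% and 1.34% in A.10. The member Sevir.5G263600, at 2.04% in ME034V and 1.79% in A.10, lay above Sevir.4G021900 and Sevir.5G244900 in both ecotypes. In the other 12 of the 13 members these values were at or below 0.363% in ME034V and 0.567% in A.10. Without A.10 anthesis replicate 3, that limit was 0.163% in A.10 and Sevir.4G021900 stood at 0.303%, while in that replicate alone the 12 members, at 1.00 to 1.88%, overlapped its 1.51%. Without ME034V anthesis replicate 2 the limit was 0.276% in ME034V and Sevir.4G021900 stood at 0.53%.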

How the data were processed

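RNA was from 32 pools of whole seed heads, 4 per stage and ecotype. The authors used Trim Galore for trimming and Subread 1.6.2 for mapping, kept reads with a single mapping and counted them with featureCounts without strand. The deposited counts hold 38334 loci of the v2.1 annotation. The authors also deposited log2 FPKM, obtained per ecotype from TMM-scaled counts (edgeR) over locus lengths that include introns. Tool names and versions come from the submitters' processing notes and the methods. There were 0 sample columns left unused.

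CPM is the count over the library total. In R 4.3.3, edgeR 4.0.16 fitted quasi-likelihood models to TMM-scaled counts of loci that passed 1 CPM in 3 or more libraries. The SE was obtained by dividing the absolute log2 estimate by the square root of F. Other fits used DESeq2 1.42.0, edgeR with DESeq2 scaling, scaling without the members, other filters, a replicate block, fewer libraries, and limma 3.58.1 on log2 FPKM. On simulated counts with known changes, edgeR recovered 70.1, 67.3, 57.1 and 76.0% of changes of 1 on the log2 scale and 92.9, 98.0, 95.0 and 94.9% of changes of 2, in the order 8 DAA, 16 DAA, ME034V anthesis and A.10 anthesis. The simulated loci were drawn at random and took the dispersion trend over all loci, not the members' own spread. These rates therefore do not say how often such a change would be found in a member. The members, gene lists and tests were chosen with earlier results of these data known. All members are named. Marker lists by gene description were not used, since no identifier could be matched, and no sequences are shown. Library totals without TMM, the fit of 16 late libraries, the joint removal of libraries, the pair ratios and the anthesis levels without single libraries were added after seeing the data.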

Additional observations from a re-analysis of the deposited data

Results flagged for a closer look

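Of 112 groups of 4 libraries examined, 1 per member or summed share and stage and ecotype, 35 held a library far from the other 3 by Dixon's test. The limit used flags about 1 in 20 single groups of normally spread values. The groups share the same 32 libraries and the summed share repeats the members. The 35 flags are thus not independent and cannot be set against that rate. A.10 anthesis replicate 3 accounted for 13 of them, each time as the highest. Its values were 487 CPM for Sevir.9G410150, 412 for Sevir.9G410100, 210.1 for Sevir.4G169900, 123 for Sevir.8G199000, 87.4 for Sevir.8G198700, 64.1 for Sevir.2G224200 and 40.8 for Sevir.7G027900. The lower ones were 25.3 CPM for Sevir.4G185000, 24.7 for Sevir.9G300633, 18.9 for Sevir.5G354800, 17.3 for Sevir.3G037400 and 11.6 for Sevir.9G300666, and the members held 0.154% of its counts.

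ME034V 50% SH replicate 3 was far above the others for Sevir.9G410150 (58.9 CPM), Sevir.9G410100 (27.1), Sevir.8G199000 (19.2), Sevir.4G169900 (18.8) and Sevir.3G037400 (2.77), and for the members' share (0.0161%). A.10 50% SH replicate 3 was above for Sevir.4G169900 (31.6 CPM), Sevir.2G224200 (7.46) and Sevir.7G027900 (7.46). ME034V anthesis replicate 2 was above for Sevir.4G169900 (60.1 CPM), Sevir.5G263600 (16.7) and Sevir.9G300633 (11.1).

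Among the late libraries, ME034V 16 DAA replicate 3 was far below the others for Sevir.9G410100 (9139 CPM), Sevir.2G224200 (2478) and Sevir.5G263600 (284). ME034V 8 DAA replicate 3 was below for Sevir.9G410100 (17634 CPM) and for the members' share (8.56%), and A.10 8 DAA replicate 1 was below for Sevir.3G037400 (890.3 CPM). ME034V 8 DAA replicate 2 was above for Sevir.3G037400 (1162 CPM). A.10 16 DAA replicate 1 was above for Sevir.9G410150 (41813 CPM), Sevir.7G027900 (4339) and the members' share (13.3%).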

How the results depend on the processing

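The member count was 13 without any single library and 8 with a minimum of 1000 CPM. Leaving out each library in turn, the members' share ranged from 0.00565 to 0.00942% at 50% SH, 0.00671 to 0.0216% at anthesis, 11.1 to 12.5% at 8 DAA and 9.93 to 11.8% at 16 DAA in ME034V. In A.10 it ranged from 0.00770 to 0.0125%, 0.0128 to 0.0609%, 11.004 to 12.2% and 10.4 to 11.4%. The number of members called ranged from 0 to 1 between ecotypes at 8 DAA, 0 to 1 at 16 DAA, 0 to 3 at anthesis in ME034V and 2 to 13 at anthesis in A.10. With only the 8 libraries compared, 6 members passed at 8 DAA and 1 at 16 DAA. With the 16 late libraries, 4 and 2 passed. Without both libraries that stood apart, a choice made after seeing the data, 0 passed at 8 DAA, 0 at anthesis in ME034V and 4 at anthesis in A.10. Of 25221 loci tested at 8 DAA, 3228 then passed as higher and 2157 as lower. As higher at anthesis, 1819 of 23950 loci passed in ME034V and 3038 of 23797 in A.10. DESeq2 called 6 and limma 2 at anthesis in A.10.

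With the replicate number as a block, 1 member passed at 8 DAA, 1 at 16 DAA, 1 at anthesis in ME034V and 8 at anthesis in A.10. With the block, 2528 and 3300 of 25264 loci tested passed as lower in ME034V at 8 and 16 DAA. As higher at anthesis, 2428 of 24144 passed in ME034V and 3877 of 23984 in A.10. The member at 16 DAA was Sevir.5G263600 (edgeR adjusted p = 0.047 with the block and 0.052 without). The labels give no shared origin of same-numbered libraries, and in none of the 4 comparisons did every pair correlate above 0.1, so the numbers were not taken as pairing the libraries. Deviations of same-numbered libraries correlated at 0.08 to 0.44 at 8 DAA, 0.05 to 0.25 at 16 DAA, -0.14 to 0.05 at anthesis in ME034V and -0.10 to 0.03 in A.10, and 3, 3, 0 and 1 of 4 libraries correlated best with their own number.

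Of 923 values of single members under alternatives, 28 changed sign. For Sevir.9G300666 at 8 DAA the log2 fold change was 0.0127 with library totals and ranged from -0.19 to 0.0901 when single libraries were left out. For Sevir.9G300633 at 16 DAA it ranged from -0.24 to 0.37. At anthesis in ME034V, Sevir.7G027900 was at -0.15 with the block and -0.28 in limma, where Sevir.8G199000 was at -0.0854. Without single libraries the range at anthesis in ME034V was -0.22 to 1.502 for Sevir.2G224200, -1.17 to 2.14 for Sevir.3G037400, -0.88 to 1.73 for Sevir.4G169900, -1.26 to 0.70 for Sevir.7G027900, -0.77 to 1.72 for Sevir.8G198700, -0.68 to 1.45 for Sevir.8G199000, -0.41 to 2.30 for Sevir.9G300633, -1.18 to 1.38 for Sevir.9G300666, -0.44 to 1.92 for Sevir.9G410100 and -0.65 to 1.45 for Sevir.9G410150. The lowest value was that without anthesis replicate 2 in each. Without both libraries that stood apart the values were -0.21 for Sevir.4G169900, -0.66 for Sevir.7G027900, -0.32 for Sevir.8G198700, -0.0638 for Sevir.8G199000, -0.72 for Sevir.9G300666 and -0.0193 for Sevir.9G410150. The cause was not tested. The early values of members rest on few reads, 430 to 12234 per library for all 13 together.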
